A study of Drosophila melanogaster with 4 samples.

Results

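Chromosome 4, the smallest chromosome of Drosophila melanogaster, carries the transcription factor genes ci, zfh2, ey, toy and sv, and the regions of chromosome 4 enriched for trimethylation of histone H3 at lysine 27 (H3K27me3) are described here. The regions were chosen by sequence name alone, as every row on sequence 4 of the deposited lists. They number 13 of 1486 regions in ChIP replicate 1, 12 of 1459 in ChIP replicate 2 and 14 of 2279 in a list deposited for the series as a whole, called the series list here. H3K27me3 was mapped by chromatin immunoprecipitation and sequencing (ChIP-seq) in whole embryos of the wild-type strain Oregon-R (Oregon-R-modENCODE) aged 14 to 16 h. The 4 samples are 2 ChIP libraries and 2 inputs, and all share strain, genotype and age, with no treatment or mutant group. Whole embryos mix all cell types, so a region reports the mark summed over cells, and a mark in few cells cannot be told apart from a weak mark in many. The read depth behind the lists is unknown.

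H3K27me3 is deposited by the Polycomb repressive complex PRC2 and is known for holding developmental regulator genes silent in the cells that do not use them, often over domains that span a whole gene and its flanks. Chromosome 4 is known for its unusual chromatin, in which genes lie within sequence rich in repeats and in the heterochromatin protein HP1a. The 5 genes act in patterning and organ identity. The gene ci encodes the GLI-type transcription factor that carries the Hedgehog signal. The gene zfh2 encodes a factor with zinc fingers and homeodomains that acts in wing and leg development. The genes ey and toy encode the fly's Pax6 proteins, which specify the eye, with toy acting upstream of ey. The gene sv encodes a Pax2/5/8-type factor needed in cone cells of the eye and in sensory bristles.

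Which regions lie over these 5 genes could not be settled. The file headers name the genome build as FlyBase r5, whereas the available gene table is a RefSeq table of the Release 6 assembly, whose coordinates were not used. All 5 genes were found in that table on chromosome 4, and it was used only for gene order. Among the 80 protein-coding genes it lists there, ci is the third, between PlexB and RpS3A, and is followed by zfh2 after 29 other coding genes, between Asator and Tdg. Next along the chromosome come ey, between myo and bt, then toy, between fuss and PlexA, and sv, between Actbeta and Cals. Between zfh2 and ey lie 15 coding genes, between ey and toy 10, and between toy and sv 8. The working description of these genes as lying under H3K27me3 is therefore not tested here, the regions are named by position, and 0 regions were assigned to a gene. No sequence of the regions is shown.

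Along the chromosome the regions of the 3 lists fell into 9 loci, counted by joining regions less than 5 kb apart. In both replicates 6 of the 9 loci held a region of at least 10 kb, here called wide. These 6 loci held 97.7% of the called bases of chromosome 4 in replicate 1 and 98.2% in replicate 2, and lay between positions 397605 and 453500 for the first (locus 3) and 1105458 and 1132241 for the last (locus 8). That stretch is 735 kb long, or 54.3% of the 1351857 bp chromosome. Of the other 3 loci, 2 held only narrow regions, near positions 97030 to 110493 (locus 1) and 1285774 to 1287684 (locus 9). The remaining locus 2 was called in the series list alone.

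**Figure D1:**
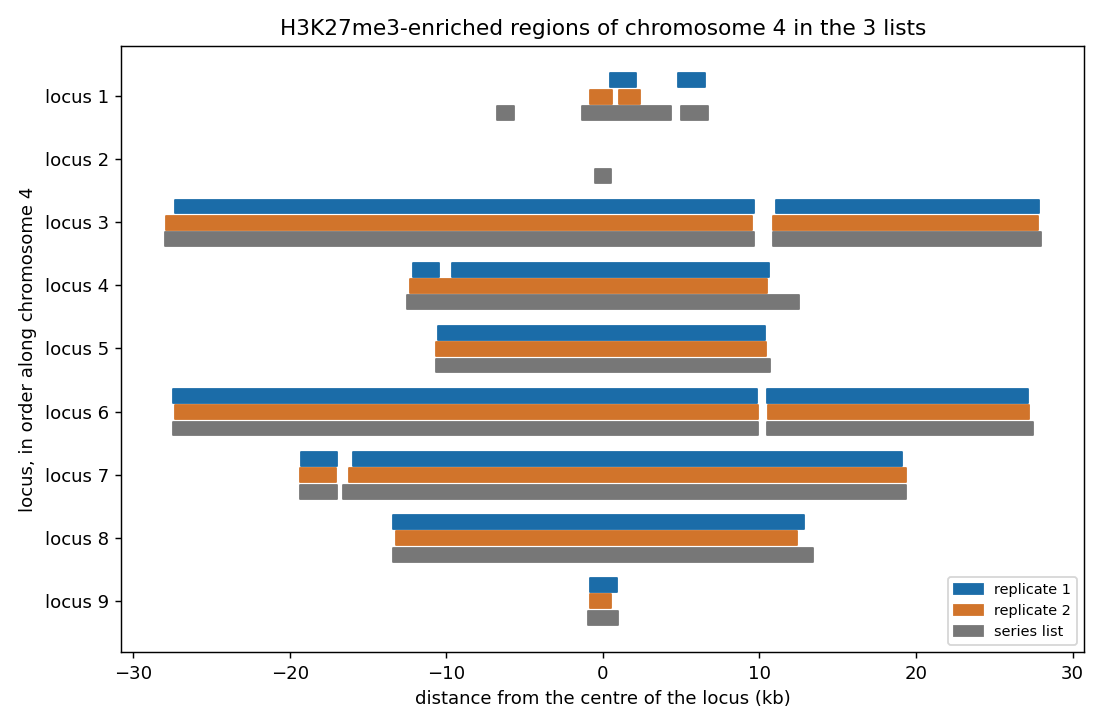
Enriched regions of the 9 loci of chromosome 4 as bars, against distance in kb from the centre of each locus, for replicate 1, replicate 2 and the series list. The bars of loci 3 to 8 nearly coincide across the 3 lists, and loci 3, 6 and 7 show a short break at the same place in each list.

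The most extensive loci were 3 and 6. Locus 3 had 53.8 kb called in replicate 1 and 54.3 kb in replicate 2, a mean of 54.1 kb ± 0.35 (SD, n = 2). Locus 6, at 818350 to 873232, had 53.956 kb and 53.960 kb called, a mean of 53.96 kb ± 0.0028 (SD, n = 2). They took up 24.5% and 24.6% of the called bases in replicate 1, and 24.7% and 24.6% in replicate 2. The gap between their means was smaller than the spread of locus 3 between replicates, so their extents cannot be told apart.

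Locus 7, at 989072 to 1027792, came next, with 37.3 kb called in replicate 1 and 37.9 kb in replicate 2 (mean 37.6 kb ± 0.37, SD, n = 2). Locus 8 followed with 26.3 kb and 25.6 kb (mean 25.9 kb ± 0.45, SD, n = 2). Locus 4, at 513887 to 538891, had 21.9 kb and 22.8 kb (mean 22.4 kb ± 0.65, SD, n = 2), and locus 5, at 718442 to 739729, had 20.9 kb and 21.1 kb (mean 20.99 kb ± 0.13, SD, n = 2). In this order each pair of neighbours from locus 6 downwards was separated in both replicates, with the lower value of the longer locus above the higher value of the shorter. With 2 values each, no test was run, since an exact 2-sided permutation test of 2 against 2 cannot go below p = 0.333.

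**Figure D2:**
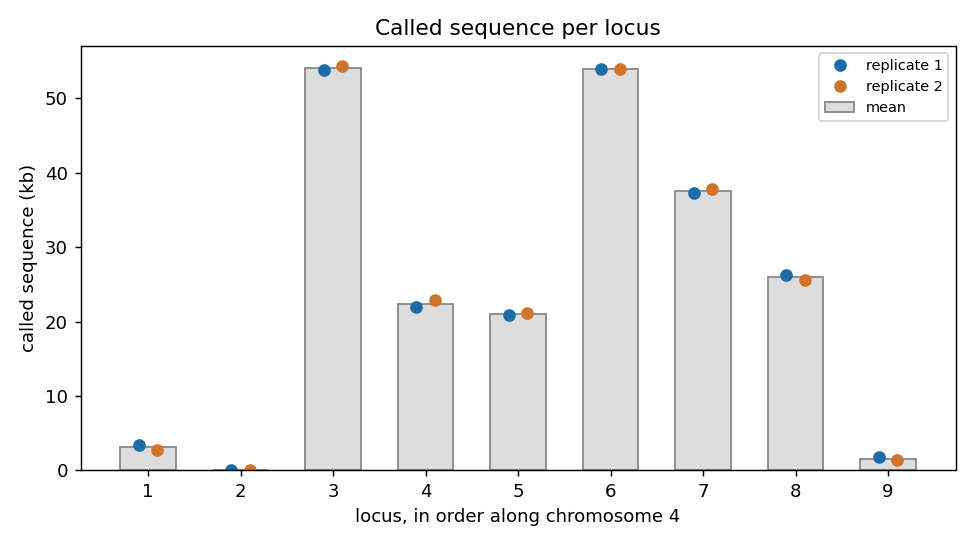
Called sequence in kb at each of the 9 loci, with a point for each replicate and a bar for their mean. Loci 3 and 6 stand near 54 kb, and loci 1, 2 and 9 stay under 4 kb.

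At the narrow loci the replicates differed more in proportion. Locus 1 had 3.41 kb called in replicate 1, as regions of 1659 bp and 1748 bp, and 2.75 kb in replicate 2, as regions of 1385 bp and 1362 bp. Only 24.9% of the bases called there in either replicate were called in both. Locus 9 had 1.73 kb and 1.31 kb called, of which 74.4% was shared. At the 6 wide loci the shared part ran from 95.2% (locus 4) to 99.4% (locus 6).

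Between the loci lay long stretches with no call. The longest ran for 288 kb in replicate 1 (110313 to 398203) and 292 kb in replicate 2 (106128 to 397651), 21.3% and 21.6% of the chromosome. In the series list a 1061 bp region of locus 2 (340685 to 341745, score 0.442) lay inside it, and its longest uncalled stretch was 230 kb. The next longest ran for 182 kb and began at 536985 in replicate 1 and at 536890 in replicate 2. No region was called in the first 104 kb of the sequence in replicate 1 or the first 103 kb in replicate 2, nor in the last 64.2 kb and 64.6 kb. A missing call means only that the authors' threshold was not passed. Where reads can be placed on this chromosome, in these stretches or in the short breaks below, was not examined.

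The highest score of chromosome 4 belonged to locus 5 in each list. The score is the authors' own value per region, its scale is not stated in the labels or file headers, and ranks by score are taken within a list. The single region of locus 5 scored 2.10 in replicate 1 (718572 to 739462) and 2.15 in replicate 2 (718452 to 739532). That was rank 88 of 300 wide regions in replicate 1 and rank 83 of 311 in replicate 2, so 70.7% and 73.3% of wide regions in the list scored lower. The second was the main region of locus 7, with 1.91 in replicate 1 and 2.02 in replicate 2, and the third was the shorter region of locus 6, with 1.84 and 1.96. The series list gave the same first 3, with scores of 2.10, 1.93 and 1.88.

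The widest regions were not those with the highest scores. The 37.3 kb region of locus 6 (818359 to 855641 in replicate 1) scored 1.66 in replicate 1, where it was widest, and 1.83 in replicate 2. The 37.0 kb region of locus 3 (398204 to 435226 in replicate 1), widest in replicate 2 at 37.4 kb, scored 1.36 and 1.42. Next in width was the 35.0 kb region of locus 7, which was also second in score. In the series list the same 3 regions led by width, at 37.6 kb, 37.4 kb and 36.0 kb. Among wide regions of the whole list, the region of locus 3 stood above 41.3% in replicate 1 and 44.4% in replicate 2, and the wide region of locus 4 above 42.0% and 39.9%. All 8 wide regions of chromosome 4 scored between 1.36 and 2.10 in replicate 1 and between 1.33 and 2.15 in replicate 2. The other 5 regions of replicate 1 scored 0.455 to 0.775, and the other 4 of replicate 2 scored 0.439 to 0.700, so wide and narrow regions did not overlap in score. On each other major arm too, the median score of wide regions was above that of all regions. In replicate 1 the wide medians ran from 1.31 (2L) to 2.07 (X), against 0.590 (2R) to 0.699 (X). In replicate 2 they ran from 1.32 (2L) to 2.07 (X), against 0.578 (3L) to 0.651 (X). Higher scores of wide regions are thus not particular to chromosome 4. The lack of overlap did not hold over the whole list of replicate 1, where a 1.76 kb region scored 3.64.

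**Figure D3:**
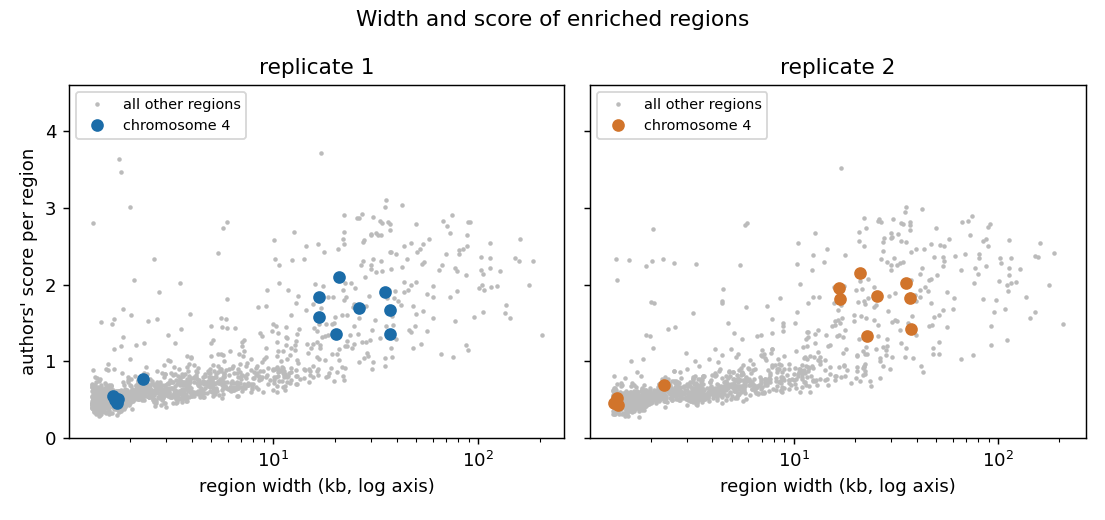
Score of each region against its width in kb (log axis), with regions of chromosome 4 as large points and all other regions in grey, replicate 1 on the left and replicate 2 on the right. The chromosome 4 regions form a group of 8 between 16.7 kb and 37.4 kb with scores above 1.3, and a group under 2.4 kb with scores below 0.8.

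Short breaks, of less than 2 kb, fell at the same places in all 3 lists at loci 3, 6 and 7, and elsewhere they did not. At locus 3 a break of 1387 bp in replicate 1 (435227 to 436613) and of 1344 bp in replicate 2 (435078 to 436421) shared 1195 bp, and the series list had a break of 1204 bp there. At locus 6 the breaks were 621 bp (855642 to 856262) and 635 bp (855698 to 856332) and shared 565 bp. At locus 7 they were 1029 bp (991469 to 992497) and 824 bp (991402 to 992225) and shared 757 bp, and the series list broke for 355 bp. At locus 4, by contrast, replicate 1 alone had a break, of 795 bp (515956 to 516750), which cut off a 1686 bp region with a score of 0.501. Replicate 2 called that locus as a single region of 22.8 kb with a score of 1.33, and the series list as 25.0 kb with 1.23. At locus 1, replicate 2 had a break of 434 bp (104332 to 104765) that was called in replicate 1 and in the series list, and the series list had 1 of 610 bp (108111 to 108720).

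The wide regions of chromosome 4 were neither the longest of the genome nor rare. None reached 50 kb in any list, against 61 of all regions in replicate 1 and 63 in replicate 2. They were dense, at 5.92 regions of at least 10 kb per Mb in each replicate, against 1.69 per Mb on X in each, 2.18 and 2.41 on 2R, 2.69 and 2.80 on 3R, 2.69 and 2.74 on 2L, and 2.85 and 2.93 on 3L. On a chromosome of 1.35 Mb this density rests on 8 regions, which lie in 6 loci. Loci 3 and 6 span 55.9 kb and 54.9 kb over the 3 lists. A short break cuts each into 2 regions, so neither counts as a region of 50 kb. Regions on the 2 sides of a short break were counted apart on every arm. With a limit of 20 kb the density was 4.44 per Mb in each replicate, against at most 1.78 and 1.87 on another major arm. Counted over all widths, chromosome 4 had 9.62 and 8.88 regions per Mb, near the 9.32 and 8.83 of X and below the other arms.

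The makeup of the called sequence differed accordingly. Wide regions were 61.5% of the regions of chromosome 4 in replicate 1 and 66.7% in replicate 2, and held 95.8% and 97.1% of its called bases. On the other major arms wide regions held 67.5% (2R) to 82.5% (2L) of the called bases in replicate 1 and 70.8% (2R) to 82.3% (2L) in replicate 2. The median width on chromosome 4 was 16.8 kb and 19.0 kb, against 2203 bp to 3479 bp on the other arms over both replicates. The called share of chromosome 4 was 16.22% and 16.26%, and on 2L, the next highest, it was 13.3% and 13.8%. These differences exceeded the spread between the replicates, which both point the same way. That spread measures how well the calls repeat, not how stretches of 1.35 Mb vary along the genome. The called share of chromosome 4 rests largely on the 6 wide loci, of which loci 3 and 6 held about 54 kb each. The differences were not tested because of the 2 values per arm.

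**Figure D4:**
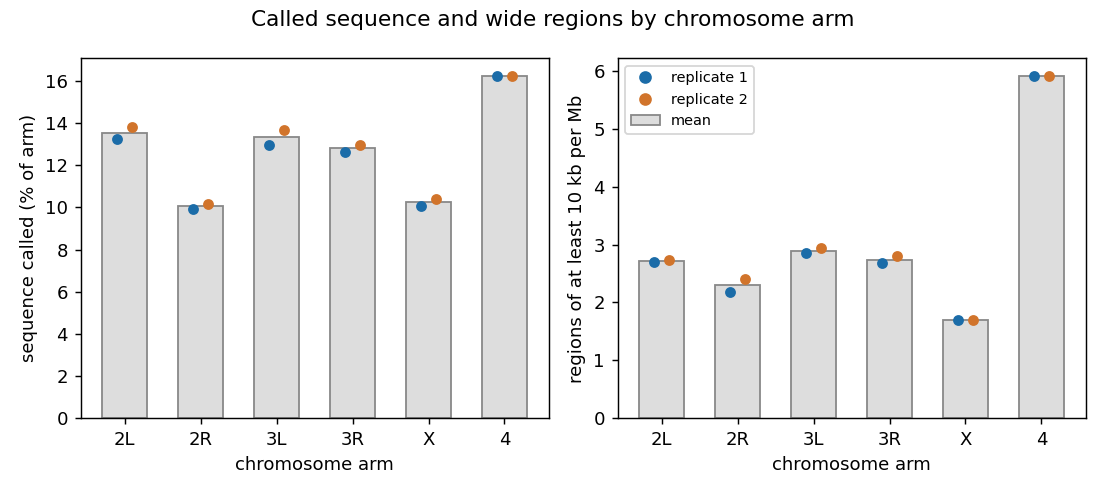
Share of each major arm called, in percent (left), and regions of at least 10 kb per Mb (right), with a point for each replicate and a bar for the mean. Chromosome 4 has the highest bar in both panels, 16.2% and 5.92 per Mb.

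Between the replicates, 12 of the 13 regions of replicate 1 overlapped a region of replicate 2 by at least 1 bp, against 81.3% of all regions of that list. All 12 regions of replicate 2 overlapped replicate 1, against 75.5% of its list. For the region at 102947 to 104331 replicate 1 covered only 9.24%. With at least 50% of the shorter region asked for, the count was 11. Width goes with overlap, and chromosome 4 has few narrow regions. All 300 wide regions of replicate 1 and all 311 of replicate 2 overlapped the other replicate wherever they lay. The region of replicate 1 that replicate 2 lacked was a 1748 bp region of locus 1 (108565 to 110312, score 0.510). Base by base, 216 kb of chromosome 4 were called in both replicates and 224 kb in either, a shared part of 96.4%, against 86.4% over all sequences. The shared part was not computed for wide regions alone. For these another measure was used, the share of their bases called in the other replicate, with the other major arms as the reference. By that measure chromosome 4 and the other arms were close. Replicate 2 contained 99.5% of the bases of the wide regions of replicate 1 on chromosome 4 and 99.4% of those on the other major arms. Conversely replicate 1 contained 98.8% and 98.3%.

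The ends of matched regions lay close together in the replicates. The 9 regions that matched one to one on chromosome 4 had 18 ends, which differed by 17 bp to 552 bp between replicates, with a median of 109 bp. For the 7 wide pairs the median was 134.5 bp, against 94.5 bp for the 190 wide pairs of all sequences. Within 200 bp lay 71.4% of the ends of wide pairs on chromosome 4 and 72.4% of those of all wide pairs. The largest shift was at the left end of locus 3, which began 552 bp earlier in replicate 2. Wide regions matched one to one in 7 of 8 cases in each replicate, against 63.3% of all wide regions of replicate 1 and 61.7% of those of replicate 2. The exception was the region of locus 4, which replicate 1 split. The reference is not matched for width. It includes 61 regions of at least 50 kb in replicate 1 and 63 in replicate 2, and chromosome 4 has none.

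Most wide regions of chromosome 4 scored higher in replicate 2 than in replicate 1. Scores of the replicates are set side by side here on a scale that is not stated, with the other arms as the reference. Those arms were not matched by score. Their wide one-to-one pairs had a median score of 1.93 in replicate 1, against 1.70 on chromosome 4. In each of the 7 wide pairs that matched one to one replicate 2 had the higher score, by 0.0510 to 0.234, with a median difference of 0.121. Loci 3 and 6 gave 2 of these pairs each, from the 2 sides of a short break, so the pairs are not 7 separate loci. The eighth wide region, that of locus 4, which has no one-to-one match, went the other way, from 1.36 to 1.33. The gap was widest for the shorter region of locus 3, with 1.58 in replicate 1 and 1.81 in replicate 2. The region of locus 8 went from 1.70 to 1.85, and that of locus 5 from 2.10 to 2.15. Among the 182 wide pairs of the other 5 major arms, replicate 2 was higher in 94, or 51.6%, and the median difference was 0.0037. The median per arm ran from -0.0056 on 2R to 0.0148 on 3L. A difference of at least 0.1 in this direction was found in 5 of the 7 pairs of chromosome 4 and in 25 of the 182 others (13.7%). With pairs that share at least 50% of both regions, which bring in locus 4, replicate 2 was higher in 7 of 8 wide pairs of chromosome 4, with a median difference of 0.115, and in 136 of 261 on the other major arms (52.1%), with a median of 0.0050.

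Among the 190 wide one-to-one pairs of the genome the largest increase was the one at locus 3, and the 7 pairs of chromosome 4 ranked 1, 6, 8, 19, 25, 46 and 56. The mean score of chromosome 4, weighted by width, was 1.63 in replicate 1 and 1.74 in replicate 2, an SD of 0.079. The SD of the same mean was at most 0.0113 on the other major arms. These SDs are not matched for the number of regions averaged. Chromosome 4 has 8 wide regions in each replicate, and the other major arms have 38 (X) to 78 (3R). Single wide pairs on those arms shifted by -0.196 to 0.213. The narrow regions of chromosome 4 did not show a like rise. The 2.3 kb region at the left of locus 7 scored 0.775 in replicate 1 and 0.700 in replicate 2, locus 1 had a mean score weighted by width of 0.531 and 0.483, and locus 9 scored 0.455 and 0.457. Regions of a library are not replicates, so no test was made. The number of samples is 2, and the inputs, against which the lists are labelled as called, were not analysed here. The cause of the shift was not tested.

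**Figure D5:**
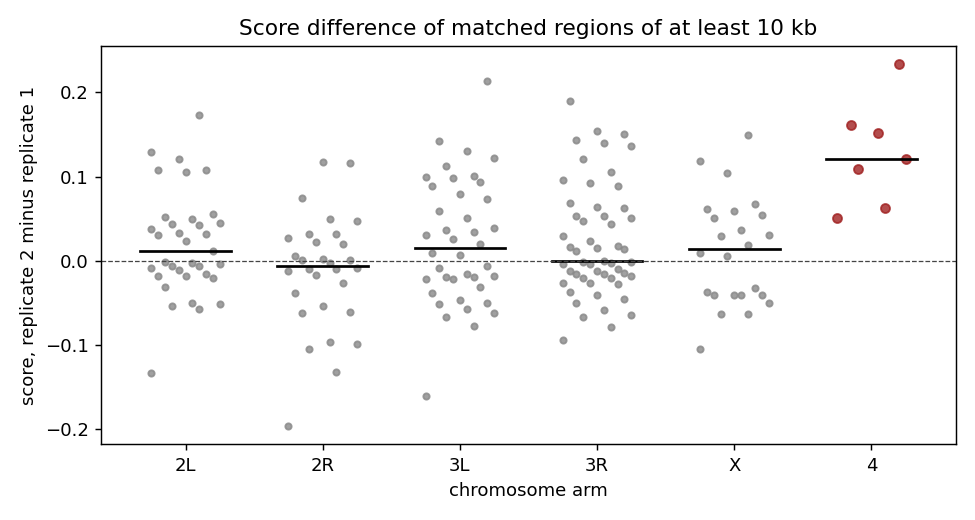
Score in replicate 2 minus score in replicate 1 for each pair of regions of at least 10 kb that match one to one, by chromosome arm, with the median of each arm as a line. All 7 points of chromosome 4 lie above 0, with a median of 0.121, and the points of the other arms lie on both sides of 0.

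The series list, which is not independent of the replicates, added little on chromosome 4. Of its 14 regions 11 overlapped both replicates, against 37.0% of all its regions, and 1 overlapped replicate 1 alone. The other 2 overlapped neither. They were the region of locus 2 and a 1041 bp region of locus 1 (97030 to 98070, score 0.915). The reference of 37.0% is not matched for width. Wide regions were 57.1% of the series-list regions on chromosome 4 and 14.6% of the whole series list. Of the bases of the series list on chromosome 4, 92.9% were called in both replicates and 3.69% in neither. It contained 99.9% of the bases of replicate 1 and all but 9 bp of replicate 2. At the right end of locus 4 its 25.0 kb region ran 1907 bp past the end called in replicate 1 and 2002 bp past that of replicate 2.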

How the data were processed

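The members and lists were chosen with earlier results of these data known. The 3 files are lists of enriched regions in GFF3 form, in FlyBase r5 coordinates per the file headers. They were deposited with 1 score per region, and neither labels nor headers state its scale, the caller, the threshold or how the series list was made. Bowtie 0.12.7 is named in the submitters' processing notes. Each input is labelled as the input for the list of the ChIP library with its number. The replicates are separate samples by their labels, and whether they came from separate collections is not given.

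Overlap was counted from 1 bp, width as end minus start plus 1, and shares over the sequence lengths of the headers. In the series list 1 region that ran past its arm was clipped. The 10 kb limit for wide regions and the 5 kb joining distance for loci were chosen after the data were seen. Described in the text were every locus, the 3 widest and 3 highest-scoring regions of each list, regions of 1 replicate alone and series-list regions in neither. No genes were assigned, so the planned coverage of genes, the 5 members and 21 others, was not computed. Calculations used Python 3.11.15, numpy 2.4.6 and matplotlib 3.10.9. The overlap code recovered the overlap of 5 of 5 simulated list pairs exactly.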

Additional observations from a re-analysis of the deposited data

How the results depend on the processing

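The called share of chromosome 4, 16.2%, was 15.8% when regions scoring under the median of their list were dropped, 16.4% and 16.5% with regions less than 1 kb or 2 kb apart joined, and 17.2% in the series list. It ranged from 16.22% to 16.26% when either replicate was left out. The bases shared by the replicates, 96.4% of those called in either, became 97.4% without the lower-scoring regions and 96.7% with joining under 1 kb. Series-list regions that overlap both replicates, 11, became 11 to 12 when a single replicate was asked for. With a width limit of 50 kb, added after the data were seen, chromosome 4 had 0 wide regions in replicate 1 and 0 in replicate 2 in place of 8. Regions cut apart by a short break were not joined for these counts. With pairs that share at least 50% of both regions, chromosome 4 had 11 pairs in place of 9. The median difference of ends then went from 109 bp to 134.5 bp. The median difference of scores, taken here without its sign, went from 0.110 to 0.0756. The other counts stayed within 1.5 times their value under every alternative run. Coverage of genes was not run, for lack of Release 5 gene positions. No paired analysis was possible because no region list of the inputs, numbered like the ChIP libraries, was analysed here. Read depth is unknown and its effect could not be measured.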
